A study of Mus musculus with 8 samples.

Results

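The fragments described here are sperm small RNAs that the deposited annotation labels as piRNA and nothing else, but that have no exact match in the mouse genome. They were found by that label and by the absence of a genome match, with no use of group differences, and number 234914 distinct sequences of 5724730 in all (4.10%). They make up 15.7% of the 1491682 distinct sequences that carry the piRNA label. In the text below they are called members, and the piRNA-labelled sequences that do match the genome serve as their reference.

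Sperm from the caudae epididymides of 8 mice was sequenced, 1 library per mouse, to ask whether excitation of AgRP neurons changes the small RNA content of sperm. The 4 activated mice were Agrp Cre/+ and the 4 control mice were Agrp +/+. All 8 received, at 8 weeks of age, an AAV in the arcuate nucleus that encodes the Cre-dependent excitatory receptor hM3Dq with mCherry, so that only the Agrp Cre/+ mice could express it, in AgRP neurons. After 3 weeks food was removed for 1 h, all mice were given CNO, the ligand of the receptor, at 1 mg/kg, and sperm was taken 4 h later. Genotype and activation therefore cannot be told apart, and the control mice also received virus, CNO and food removal. Libraries held 9297270 to 23123700 reads, and RPM below means reads per 1000000 reads of a library.

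PIWI-interacting RNAs are germline RNAs somewhat longer than miRNAs that guide PIWI proteins to transposon and other transcripts. Primary piRNAs usually begin with U, and secondary piRNAs made by the ping-pong cycle tend to have A at the tenth base. miRNAs are often lengthened after processing by enzymes that add A or U to the 3′ end, and such tailed forms no longer match the genome. Transfer RNAs carry many modified bases, some of which are misread when RNA is copied into DNA, and a read with a wrong base also loses its exact genome match. Databases of piRNA sequences were built from small RNA sequencing and can hold fragments of other RNAs.

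The most abundant members were miRNAs with extra 3′ bases. The mature miRNAs concerned are printed first (RefSeq, GRCm38.p6), 5′ to 3′, with the seed, bases 2 to 8, in capitals, because they show what each member was built on. miR-465b-5p and miR-465c-5p share the seed AUUUAGA.
miR-16-5p: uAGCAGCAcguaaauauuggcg
miR-191-5p: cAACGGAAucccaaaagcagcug
miR-465b-5p: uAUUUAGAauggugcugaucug
miR-465c-5p: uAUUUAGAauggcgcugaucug
miR-741-3p: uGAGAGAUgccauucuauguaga

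These miRNAs lie at chr14:61631936-61631957 (Mir16-1, minus strand), chr3:69009918-69009939 (Mir16-2, plus), chr9:108568325-108568347 (Mir191, plus), chrX:66835811-66835832 (Mir465b-2, minus), chrX:66826004-66826025 (Mir465c-1, minus), chrX:66832566-66832587 (Mir465c-2, minus) and chrX:66796809-66796831 (Mir741, minus). The members follow as deposited, in DNA letters, with the bases that do not continue the RefSeq hairpin in capitals. Next to 2 of the miR-191-5p members the abundant fragment is a 22 nt form that lacks the last base of the 23 nt mature sequence.
miR-16-5p with A: tagcagcacgtaaatattggcgA
miR-16-5p with A in place of its last base: tagcagcacgtaaatattggcA
miR-191-5p, 22 nt form, with T: caacggaatcccaaaagcagctT
miR-191-5p, 22 nt form, with TT: caacggaatcccaaaagcagctTT
miR-191-5p, longer, with T: caacggaatcccaaaagcagctgttT
miR-465c-5p with T: tatttagaatggcgctgatctgT
miR-465b-5p with T: tatttagaatggtgctgatctgT
miR-741-3p with A: tgagagatgccattctatgtagaA

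The members next to tRNA and rRNA fragments follow. In the next lines the capital is the changed or added base, and in the genome-matching fragment it is the base that changes.
tRNA-Gly-GCC 5′ fragment: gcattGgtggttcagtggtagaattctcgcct
member, G6T: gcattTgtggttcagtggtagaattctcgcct
tRNA-Val-AAC inner fragment: cctAacacgcgaaaggtccccgg
member, A4G: cctGacacgcgaaaggtccccgg
16S rRNA fragment: actaatcctagccctagccc
member with A: actaatcctagccctagcccA
Mt_rRNA fragment: aaaggtttggtcctggccT
member, T19A: aaaggtttggtcctggccA

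In a token such as G6T the genome-matching base stands first, then its position from 1 at the 5′ end, then the base of the member. The 16S rRNA fragment lies at the 5′ end of mt-Rnr2, the large mitochondrial rRNA (chrM:1094-1113, GRCm38, plus strand), and the Mt_rRNA fragment at the 5′ end of mt-Rnr1, the small one (chrM:70-88, plus strand).

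Members took up much of what the files call piRNA. They were at 90962, 70225, 78958 and 87445 RPM in the activated mice, against 84239, 75197, 53506 and 104840 RPM in the controls. The control samples spanned the activated ones, and the means of 81898 ± 9271 and 79446 ± 21282 RPM (SD, n = 4 each) did not differ beyond that spread (exact permutation test over 70 assignments, two-sided, p = 0.857). Members held 53.5 ± 4.34% of piRNA-labelled reads in activated and 58.1 ± 7.12% in control sperm (range 47.9% to 67.3%, exact permutation test, p = 0.314, n = 4 each). The genome-matching piRNA-labelled reads, measured in the same way, stood at 71272 ± 10445 and 56219 ± 12263 RPM (exact permutation test, p = 0.114, n = 4 each). With 12 such measures compared, the lowest adjusted p was 0.686, and 4 samples against 4 cannot give an unadjusted p below 0.0286.

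A few sequences carried most of the reads. The 10 most abundant members held 25.4% of the 9358803 member reads and the 100 most abundant 51.9%. Only 6974 members were seen in all 8 samples, and these held 84.5% of the reads, whereas 72977 members (31.1%) were read once in all.

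**Figure D1:**
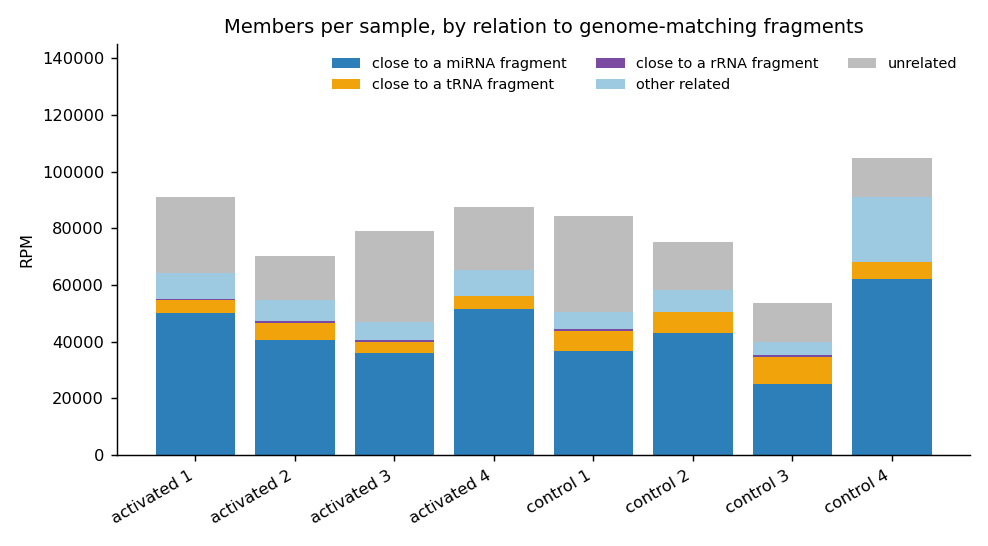
RPM of members in each of the 8 samples, stacked by the kind of genome-matching fragment they are close to (other related: extends a RefSeq hairpin, or has a neighbour with fewer reads). Members close to miRNA fragments form the largest block in every sample, and the unrelated block reaches 33624 RPM in control replicate 1.

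The size profile of members peaked at 23 nt and was narrower than that of the genome-matching piRNA-labelled reads. Fragments of 23 nt alone made up 35.6% of member reads, 22 nt 14.8% and 24 nt 13.6%. Lengths of 21 to 24 nt held 68.3 ± 8.04% of member reads (n = 8), against 28.9 ± 3.13% of genome-matching piRNA-labelled reads. The reverse held for 29 to 33 nt, with 10.5 ± 3.90% of member reads against 25 ± 3.42%. Members measured 15 to 35 nt.

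Between the groups, 1 of 20 lengths tested had groups that did not overlap (5%). Members of 33 nt stood at 399 ± 51.5 RPM in activated sperm, against 911 ± 577 RPM in controls (exact permutation test, p = 0.0286, n = 4 each). Lengths of 31 and 32 nt were also lower in activated sperm, at 0.74 and 0.62 of the control mean (exact permutation test, p = 0.0571 for each, n = 4 per group). None passed the threshold after adjustment over the 20 lengths, the lowest adjusted p being 0.381. Leaving out 1 sample gave ratios of 0.378 to 0.636 at 33 nt (exact permutation test, p = 0.0286 to 0.0857). At 32 nt, 88.8% of reads were close to an abundant miRNA, tRNA or rRNA fragment, in the sense given below.

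**Figure D2:**
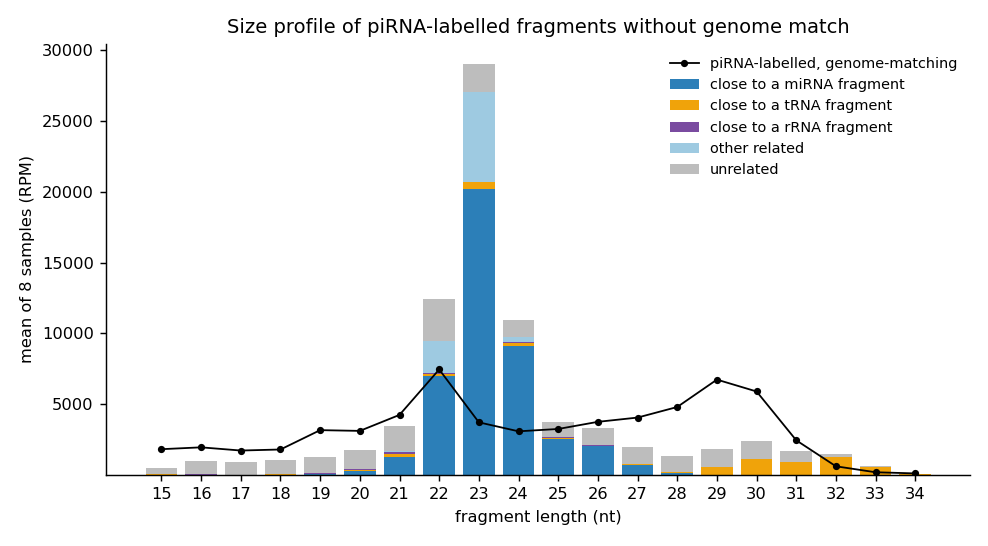
Mean RPM of members at each length over the 8 samples, stacked by relation to genome-matching fragments, with piRNA-labelled fragments that match the genome as a line. Members peak at 23 nt, whereas the line has peaks at 22 and 29 nt.

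The base composition of members also differed from that of genome-matching piRNA-labelled reads. Reads starting with U made up 42.2 ± 4.25% of member reads in activated and 43.0 ± 9.44% in control sperm (exact permutation test, p = 0.83, n = 4 each). Within each sample the share was lower than among genome-matching piRNA-labelled reads, by 26.1 percentage points on average (lower in 8 of 8 samples, exact sign-flip permutation test over 256 assignments, p = 0.00781, the smallest it can give). A at the tenth base was found in 17.2 ± 1.08% and 17.6 ± 1.68% of member reads (exact permutation test, p = 0.771, n = 4 each). This share too was lower than in the genome-matching reads in 8 of 8 samples, by 12.0 points (exact sign-flip permutation test, p = 0.00781). In 7 of 8 samples most member reads began with a base other than U, the exception being control replicate 4 with 55.7% U. In that library a single 22 nt member starting with U, described below, held 12904 of the 104840 RPM of members. The piRNA label is used here only as the annotation gives it.

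To ask how members relate to abundant RNAs, each was compared with the 2441 genome-matching miRNA, tRNA and rRNA fragments of at least 10 RPM. A member was called close when it differed from such a fragment by 1 substitution, insertion or deletion, or by 1 to 3 added end bases, and the fragment had at least as many reads. By this measure 22032 members were close, and they held 60.9 ± 6.91% of member reads in activated and 62.8 ± 6.74% in control sperm (exact permutation test, p = 0.629, n = 4 each). Among genome-matching piRNA-labelled reads 0.39% were close, a value that the label and the genome match used to choose both sets fix in part, so that no test is given.

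Close members fell into 3 unequal classes. Those close to miRNAs (15683 members) held 53.9% of all member reads, those close to tRNAs (4757 members) 7.51% and those close to rRNAs (1592 members) 0.55%. Some members had more reads than the fragment they resemble and so missed this definition, the U-tailed miR-465 forms among them. When the fragment needed at least 10 times the reads of the member, the close share was 36.7 ± 3.92% (n = 8), against 61.8 ± 6.40% as defined. When no read order was asked, and members that extend a RefSeq hairpin by 1 to 3 bases were added, 25611 members were related and held 72.7 ± 9.27% of member reads (n = 8). The other 209303 members are called unrelated here.

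The kind of change differed by class. Of the reads close to miRNAs, 75.0% had added 3′ bases and 15.9% a changed last base, against 5.04% with an inner substitution. Reads close to tRNAs had an inner substitution in 77.4% and a deletion in 17.4%, and only 2.98% had an added 3′ base. Of the reads close to rRNAs, 53.7% had added 3′ bases and 24.2% a changed last base. By label, 16S rRNA gave 73.8% of the reads of this class and Mt_rRNA 15%, and the leading fragments of both lie in mitochondrial rRNA genes.

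How often a genome-unmatched variant of an abundant RNA carried the piRNA label also depended on the class. Among genome-unmatched reads that were close to a miRNA fragment and were labelled piRNA or nothing, 96.7% in activated and 96.2% in control sperm were labelled piRNA. The shares were 73.3% and 77.1% for tRNA and 3.6% and 3.5% for rRNA.

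The miRNA-tailed members led in both groups. miR-16-5p with A was at 6805, 4565, 3159 and 5695 RPM in activated sperm, against 3289, 5063, 1327 and 5284 RPM in controls. Activated replicate 1 was highest, control replicate 3 lowest, and the groups overlapped (edgeR quasi-likelihood test, log2 fold change 0.34, SE 0.54, adjusted p = 0.999). The 22 nt form of miR-191-5p with T was at 3373, 3529, 3195 and 4571 against 3592, 3498, 2483 and 2880 RPM. The groups overlapped for this member as well (log2 fold change 0.19, SE 0.31, edgeR adjusted p = 0.999).

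Members of the miR-465 family, a testis-expressed X-linked cluster, were also among the most abundant. miR-465c-5p with T was at 4261, 3797, 3048 and 4749 RPM in activated sperm, against 3268, 3729, 1975 and 3611 RPM in controls. miR-465b-5p with T was at 1700 ± 532 and 1380 ± 514 RPM (n = 4 each). All 40 tested members close in sequence to miR-465 fragments had a log2 fold change above 0, with a median of 0.26, but 0 were called and the members share sequence. Over all tested members 973 of 1378 were above 0, with a median of 0.21, and next to miRNAs 600 of 841, with a median of 0.20. Under library size scaling 40 of 40 were above 0, with a median of 0.38.

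The other leading miRNA members showed a like pattern of overlapping groups. The longer miR-191-5p form with T averaged 1467 RPM over the 8 samples, miR-16-5p with its last base changed (G22A) 1309 RPM, the 22 nt form of miR-191-5p with TT 1083 RPM and miR-741-3p with A 860 RPM. One more of the 10 most abundant members, of 22 nt and starting with U, is a miRNA, not named here, with a T added at its 3′ end. This member rested on a single library. It was at 12904 RPM in control replicate 4 and between 39.4 and 134 RPM in the other 7 samples. In the same library, miRNAs typical of muscle and vessel summed to 35309 RPM, against 138 to 393 RPM elsewhere, and those typical of epithelium to 19420 RPM, against 1085 to 3476 RPM. The muscle and vessel list includes the miRNA of the 22 nt member, so its sum is not independent of that member. What part the miRNAs of either list have in the values of that library was not tested. Of the other marker lists, 4 erythrocyte miRNAs summed to 110 to 395 RPM in activated and 344 to 1388 RPM in control sperm, 4 leukocyte miRNAs to 398 to 862 and 295 to 553 RPM, and 11 testis and sperm miRNAs to 31610 to 51156 and 24978 to 43845 RPM. All markers were seen in all samples, and their part in the differences between groups given below was not tested.

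Tails consisted of A or U. In 8862 members the sequence followed a RefSeq hairpin for at least 18 bases and then departed from it by 1 to 3 bases, and these members came from 345 hairpin genes. A single T formed 45.8% of their reads' tails and a single A 34.6%, while AA, TT and AT made 6.11%, 6.06% and 3.56%. A single C or G accounted for 0.56% and 0.12%. Tails of A only made up 40.5% in activated and 39.6% in control sperm (exact permutation test, p = 0.771, n = 4 each), and tails of U only 53.6% and 54.3% (exact permutation test, p = 0.800, n = 4 each).

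The tail base and the tailed share differed between miRNAs. Only tails that depart from the hairpin can be seen, since an added base equal to the next hairpin base still matches the genome, so both measures are fixed in part by the sequence of each hairpin. Over 118 miRNA arms with at least 2000 tailed reads, the tailed share of all reads from the arm had a median of 20.6% and ranged from 1.62% to 87.6%. In 72 arms most tails were U and in 41 most were A, and 16 arms were tailed in more than 50% of reads. miR-16-5p was tailed in 6.93 ± 0.73% of reads (n = 8), with A in 94.7% of its tails. miR-191-5p was tailed in 11.4 ± 0.98%, with U in 84.8% of tails.

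Within the miR-465 family the arms differed. miR-465b-5p and miR-465c-5p were tailed in 70.6 ± 1.93% and 67.4 ± 1.83% of reads (n = 8), with U in 97.7% and 97.2% of tails. miR-465a-5p, of the same seed, was tailed in 9.70 ± 0.66%, with A in 92.9% of tails. Other arms from testis-expressed genes were miR-741-3p, tailed in 26.5% to 34.3% with A in 91.9% of tails, and miR-34b-3p, tailed in 11.3 ± 0.36% with U in 97.5%.

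Tailed shares overlapped between the groups in most arms. Of the 118 arms, 3 had groups that did not overlap (2.54%), each higher in activated sperm. With no difference, 4 samples against 4 separate in this way with a probability of 0.0286, the smallest exact permutation p. The share is no higher than that, so the 3 arms are not read as changed. miR-652-3p was tailed in 89.4 ± 0.50% of reads in activated and 85.8 ± 2.13% in control sperm, miR-871-5p in 31.5 ± 0.43% and 29.2 ± 1.23%, and the 3p arm of Mir375 in 18.8 ± 0.76% and 17.7 ± 0.56% (n = 4 each). Among the arms that overlapped, gaps between means could be wider, as for miR-99a-5p with 50.9 ± 5.26% and 41.3 ± 8.86% (n = 4 each). Its lowest value was 30.5% in control replicate 4, the library with the high sum of muscle and vessel miRNAs. The activated mean was the higher in 85 of 118 arms. These arms share libraries and were not tested singly.

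**Figure D3:**
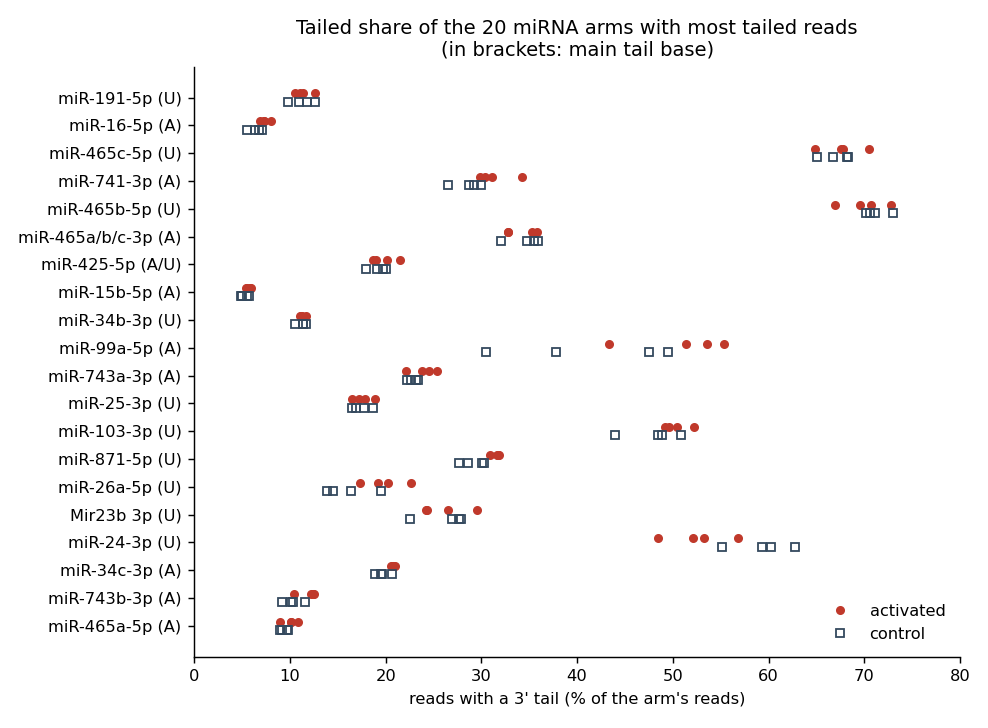
Tailed share of reads for the 20 miRNA arms with most tailed reads, each point 1 sample (filled, activated; open, control), with the main tail base in brackets. Arms differ from each other far more than the groups do, from under 10% for miR-16-5p to above 60% for miR-465b-5p and miR-465c-5p.

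Summed over a class, members were set against the RNA they resemble. Per 1000 reads of their miRNA neighbours there were 145 ± 10.6 member reads in activated and 139 ± 5.48 in control sperm (exact permutation test, p = 0.543, n = 4 each). For tRNA neighbours the values were 93.9 ± 10.2 and 102 ± 10.6 (exact permutation test, p = 0.286, n = 4 each). For rRNA neighbours they were 25.6 ± 18.2 and 19.4 ± 12.7 (exact permutation test, p = 0.514, n = 4 each), and the adjusted p over these 3 classes was 0.543 for each.

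Within the rRNA class the values moved with the share of Mt_rRNA reads in a library. What part this share has in them was not tested. In the 4 samples with under 0.5% Mt_rRNA reads (activated replicates 1 and 4, control replicates 2 and 4) the value was 8.04 to 9.90, and in the other 4 it was 26.8 to 41.7. The A-tailed 16S rRNA member printed above showed the same split. It was at 18 and 24.8 RPM in activated replicates 1 and 4 and at 17.7 and 21.8 RPM in control replicates 2 and 4. In the other 4 samples it was at 182 to 226 RPM. This member resembles a mitochondrial rRNA fragment, so its split is not independent of the share that divides the samples.

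Members next to tRNA fragments had a lower mean in activated sperm, which did not pass the test. Their sum was 4857, 5939, 3986 and 4301 RPM in the activated mice, against 7145, 7137, 9657 and 5815 RPM in the controls. Only activated replicate 2 lay above the lowest control sample, and the means of 4771 ± 858 and 7438 ± 1606 RPM gave an exact permutation p of 0.0571 (n = 4 each, adjusted p = 0.686 over the 12 measures). With TMM-scaled library sizes the groups did not overlap, with a ratio of 0.594 (exact permutation test, unadjusted p = 0.0286, n = 4 each).

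Most reads of the tRNA class were changed at base 6. The 234 members with a substitution or deletion at that base of a nuclear 5′ tRNA fragment held 74.5% of the reads of the class. The G6T form of tRNA-Gly-GCC, in 17 members of 22 to 34 nt, alone held 53.1%. Neighbour fragments of tRNA-Gly-GCC of 30 and 29 nt also had the most close members of the class, 114 and 81. Among miRNA neighbours the leaders were miR-191-5p with 141 and miR-16-5p with 120 close members, and among rRNA neighbours the 16S rRNA fragments of 20 and 24 nt, with 48 and 46.

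The amount of this tRNA variant and its share were compared separately. The Gly-GCC G6T form stood at 2528 ± 644 RPM in activated sperm, against 3775 ± 395 RPM in controls (exact permutation test, p = 0.0571, n = 4 each). As a share of itself plus the unchanged fragments of the same length, it was 14.4%, 13.6%, 12.4% and 15% in activated and 13.0%, 12.9%, 12.9% and 15.2% in control sperm. The groups overlapped (exact permutation test, p = 0.714, n = 4 each).

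Shares of the other variants overlapped as well. The Gly-GCC form with base 6 deleted made up 1.40 ± 0.095% and 1.34 ± 0.13% (exact permutation test, p = 0.457, n = 4 each). The Ser-GCT G6A form made up 20.7 ± 2.60% in activated and 15 ± 4.75% in control sperm, with the lowest value in control replicate 3 (9.08%, exact permutation test, p = 0.0571, n = 4 each, adjusted p = 0.286 over 5 variants).

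In 2 further sets of tRNA-like members the unchanged form was almost absent. The Val member printed above was first placed next to tRNA-Val-CAC by C4G, but 5 members of 20 to 24 nt are also 1 change, A4G, from tRNA-Val-AAC. Base 4 of this fragment is the first base of the anticodon, and in tRNA-Val-AAC that A is known to be deaminated to inosine, which sequencing reads as G. Set against the unchanged Val-AAC fragments, the G form made up 99.8% of reads in both groups. This pairing was chosen after its values were seen, and which of the tRNAs gave the reads was not tested.

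The other set was from the mitochondrial tRNA for histidine, to which cells are known to add a G at the 5′ end that the gene does not encode. The printed form shows this G in capitals.
mt-tRNA-His 5′ member: Ggtgaatatagtttacaaaaaacattagac
The 4 members of 24, 27, 29 and 30 nt examined had this G, with a sum of 242 ± 61.1 RPM in activated sperm and of 177 ± 56.4 RPM in control sperm (n = 4 each). The sum leaves out any other members that begin in the same way, so it is not the whole amount. The same fragments without G, which match the genome, summed to a mean of 0.096 RPM. These members too were chosen after their values were seen and count as unrelated above, since the fragment without G is below 10 RPM.

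**Figure D4:**
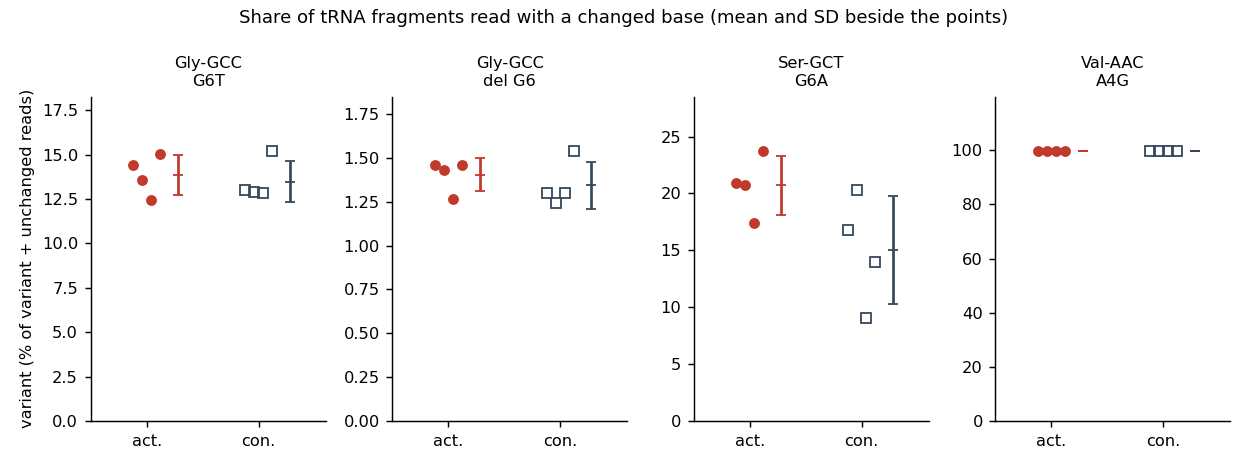
Share of reads that carry the changed base, in percent of changed plus unchanged reads of the same length, for 4 tRNA variants, with 1 point per sample and the mean and SD beside them. Each panel has its own axis from 0. The groups overlap in each panel.

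Single members were tested together with every fragment that reached 50 counts in 4 or more samples, 12077 in all, of which 1378 were members. edgeR called 61 fragments higher in activated sperm (0.505% of those tested) and 0 lower (0%), where a call needed an adjusted p under 0.05 and a change of more than 1 on the log2 scale. Of the members 16 were called higher and 0 lower, and with that change and an unadjusted p under 0.05 the counts were 87 and 51 of 1378, against 353 and 403 of 12077 over all fragments. DESeq2 with apeglm called 195 higher (1.61%) and 45 lower (0.373%), among them 48 and 12 members. The median log2 fold change of members was 0.21, against 0.01 over all fragments. The median of members was 0.074 without activated replicate 1, 0.080 without activated replicate 4, 0.10 without control replicate 3, 0.33 without activated replicate 3 and 0.44 without control replicate 4. It was 0.13 when only fragments without genome match were tested and 0.037 with the shrunken values of DESeq2. In the run of fragments without genome match alone, edgeR called 23 of 1378 members higher, against 102 of all 5316 fragments. Members were thus not called more often than the genome-unmatched fragments as a whole. With library sizes unscaled the medians were 0.33 and 0.12. RPM of the groups did not overlap for 81 members (5.88%), against 481 of all 12077 fragments (3.98%).

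The members called higher all fell among those called unrelated above, a term that covers only the changes and RNA classes compared. All 16 edgeR calls and all 48 DESeq2 calls fell among the 432 unrelated members tested, and 0 among the 946 related ones. The 16 measured 16 to 30 nt, and 5 started with U, 5 with C, 4 with G and 2 with A. Their sum was 479, 177, 761 and 292 RPM in activated sperm, against 39.4, 27.1, 18.6 and 19.9 RPM in the controls. The 48 sort into 27 groups of members that share a stretch of 14 bases, and the other 384 unrelated members tested into 111 groups, so members of a group are not independent of each other.

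The 5 with the largest change had low levels in the control samples. They reached the count minimum for testing in the activated samples only, with counts of 0 to 28 in the controls. Members this low in the controls could be tested only if every activated sample was high. The edgeR adjusted p-values below make no allowance for this. The exact size of each change rests on few control reads. A 23 nt member starting with C was at 21.2, 9.26, 26.8 and 12.4 RPM in activated sperm, against at 0.24, 0, 0 and 0.42 RPM in controls (log2 fold change 6.57, SE 1.02, edgeR adjusted p = 0.0365). The others, of 19, 26 and 16 nt starting with C and of 29 nt starting with A, had log2 fold changes of 5.73, 5.51, 5.29 and 5.02 (edgeR adjusted p between 0.0330 and 0.0426). What RNA these come from was not tested. For these 5 members the groups did not overlap, which the count minimum and the choice of the largest changes largely fix. Leaving out 1 control sample gave log2 fold changes of at least 4.74, with edgeR adjusted p up to 0.129. The size of these changes is fixed in part in the same way. Leaving out an activated sample put them below the count minimum, so they were then not tested. The count of 16 calls depended on which libraries were kept. Leaving out any of activated replicates 1, 3 and 4 or of control replicates 2, 3 and 4 gave 0, it was 7 without activated replicate 2, and it was 15 without control replicate 1. For the activated samples the count minimum fixes part of this drop. Members that reach it only in the activated samples, the 5 above among them, are then no longer tested. The count was also 0 under library size scaling.

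Of the 12 members called lower by DESeq2, 9 were related, 6 of them closest to tRNA and 3 to miRNA fragments, and 3 were unrelated. The 6 were all the tested members next to the same tRNA, with a median edgeR log2 fold change of -1.78. The 3 next to miRNA fragments were all those next to the same miRNA, with a median of -2.59. edgeR called 0 of these 9, and members that share sequence are not independent. The unrelated one with the largest change, of 31 nt and starting with C, was at 0.94, 3.66, 2.78 and 1.38 RPM in activated sperm, against 9.50, 7.01, 20.5 and 2.86 RPM in controls. The groups overlapped at control replicate 4 (edgeR log2 fold change -2.24, adjusted p = 0.232, DESeq2 adjusted p = 0.0295). Larger changes were seen in 4 of the related members called lower, and for these the groups did not overlap. RPM of the groups did not overlap for 5 of the 12, against 481 of all 12077 fragments (3.98%). The 12 were chosen by a call on the same samples, so a higher share than over all fragments follows from the choice. Of the tested members next to Gly-GCC, 24 of 26 had a log2 fold change below 0, with a median of -0.61, against 405 of 1378 over all tested members, but 0 were called by either tool. Under library size scaling 23 of 26 were below 0, with a median of -0.47.

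Of the leading Gly-GCC members, the G6T member of 32 nt averaged 769 ± 316 RPM in activated sperm, against 1133 ± 260 RPM in controls, that of 30 nt 675 ± 137 and 936 ± 128 RPM, and that of 31 nt 484 ± 209 and 887 ± 110 RPM (n = 4 each). The last had a log2 fold change of -1.0 (SE 0.34, edgeR adjusted p = 0.539).

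**Figure D5:**
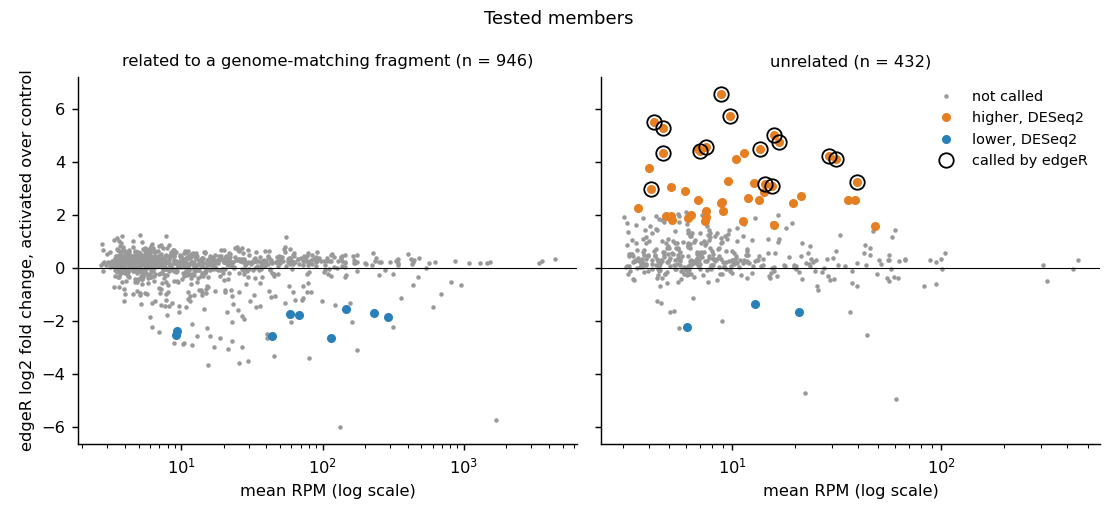
edgeR log2 fold change (activated over control) against mean RPM (log scale) for the 1378 members tested, related on the left and unrelated on the right. The 16 members called by edgeR (circled) and the 48 called higher by DESeq2 all lie in the unrelated panel.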

How the data were processed

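Mature sperm small RNA was sequenced in 4 activated and 4 control mice. The authors trimmed reads, kept duplicates, and matched them without mismatches by Bowtie to mm10 and RNA databases within the SPORTS pipeline. They deposited raw counts, the reads of each distinct sequence, with its label and genome match. A sequence with a base added or misread therefore counts as without genome match.

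Counts were divided by library totals (RPM). Group means were compared by exact permutation tests, and fragments by edgeR 4.0.16 (TMM, quasi-likelihood) with DESeq2 1.42.0 and apeglm 1.24.0 as alternative, Benjamini-Hochberg adjusted, in R 4.3.3. Other steps used Python 3.11.15. In simulated counts edgeR recovered 142 of 200 changed fragments (log2 change of 3 in either direction) with 7 false calls. Intervals for counting error were not given, since reads are not independent molecules. P-values measure the spread between mice.

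Members and lists were chosen with earlier results of these data known. Named were the 10 most abundant members, 3 close members and 2 neighbours per class, and 5 called members per direction. Of the 5 chosen in the lower direction 1 is reported, and the values of the other 4 and of 1 tRNA variant are not reported here. Hairpin relations were added after seeing the data. Unrelated members are named by length and first base, and so is the 22 nt member starting with U, which is related to a miRNA.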

Additional observations from a re-analysis of the deposited data

Results flagged for a closer look

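Of 128 groups of 4 samples examined, 11 (8.59%) held a sample far from the other 3, where chance gives about 1 in 20. The value given for each is the gap to the nearest sample as a share of the group's range.

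Control replicate 1 gave 6 of these. Its share of member reads close to abundant fragments was 52.7%, below the other controls (0.862). It had 33624 RPM of unrelated members, against 13706 to 16841 in the other controls (0.843). It was also highest among controls at 17 nt (1553 RPM, 0.929), 18 nt (1827 RPM, 0.937), 19 nt (2366 RPM, 0.986) and 28 nt (2208 RPM, 0.831).

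Control replicate 4 was highest for the share of the Gly-GCC G6T form (15.2%, 0.945) and for the 22 nt member starting with U (12904 RPM, 0.996). Activated replicate 3 was lowest for the share of the Gly-GCC form with base 6 deleted (1.26%, 0.845). Activated replicate 2 was highest for the Gly-GCC G6T members of 30 nt (878 RPM, 0.847) and 31 nt (794 RPM, 0.840).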

How the results depend on the processing

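The differences between members and genome-matching piRNA-labelled reads in first base and base 10 kept their direction and side of the threshold under each alternative run. Leaving out 1 sample gave -28.5 to -24.7 and -12.4 to -11.8 points. The count of 16 members called higher by edgeR was 48 with DESeq2, 0 with library size scaling, 30 of 5220 tested (202 of 56991 fragments) with at least 10 counts and 325 of 32206 (1743 of 387985 fragments) with at least 1 count in at least 4 samples, and 0 to 15 when 1 sample was left out. The count called higher was 23 of 1378 (102 of 5316 fragments) when only fragments without genome match were tested. The count called lower, 0, was 12 with DESeq2 (45 fragments) and 2 with the mitochondrial rRNA set as covariate (7 fragments). With at least 1 count it was 411 (1057 fragments). A replicate block gave 0 higher and 0 lower, but same-numbered samples correlated at -0.64, -0.52, 0.58 and 0.49 in their deviations, so the samples share only a number and no pairing was used.

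Ratios of activated to control that were not called changed side of 1 in some settings. Total RPM went from 1.03 to 0.924 with TMM scaling and 0.964 with related members only. The A at the base 10 ratio was 1.01 by distinct sequences and 1.11 at 24 to 33 nt, and the close share 1.06 when neighbours needed 10 times the reads. Members per 1000 tRNA neighbour reads stood at 0.783 and 1.08 within the samples below and above the Mt_rRNA threshold. Leaving out 1 sample gave ranges of 0.930 to 1.15 for total RPM, 0.921 to 1.09 for first U, 0.949 to 1.02 for A at the base 10 and 0.921 to 1.02 for the close share. It also gave 0.999 to 1.07 for the Gly-GCC G6T share and 0.9997 to 1.0002 for the Val-AAC share. The 33 nt ratio of 0.438 was 0.405 per genome-matching read, with p = 0.0857 by the exact permutation test. Of the named members, the A-tailed 16S rRNA member reversed to 0.0035 (DESeq2), 0.073 (median-ratio), 0.077 (library size) and 0.10 (1 count), from -0.053, and the C20A 16S member to -0.11 (replicate block) and -0.057 (Mt_rRNA set), from 0.053. Leaving out 1 sample gave -0.55 to 0.64 and -0.42 to 0.66 for these, -0.18 to 1.05 for the T19A member, -6.29 to 0.34 for the 22 nt member, -0.036 to 0.52 for miR-465b-5p with T and -0.060 to 0.57 for the G22A member. The causes were not tested. With 4 mice a group, the power to detect small differences was not measured.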
